A study of Mus musculus with 12 samples.

Results

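The genes described here are 33 genes that make, move, store or export cholesterol, taken by symbol from a fixed list out of the 55401 genes of a liver count table. They fall into 20 genes of cholesterol synthesis, 4 regulators of the pathway, 4 genes of uptake and transport, 2 of storage and 3 of efflux. Their RNA was compared between 6 iTgMir483 and 6 Control livers from female mice aged 15 weeks, to ask how adult over-expression of the microRNA gene Mir483 goes along with liver gene expression. iTgMir483 mice carry an inducible Tet-off Mir483 transgene in the ubiquitously active Rosa26 locus, from which a selection cassette was removed by Cre. Doxycycline, which silences the transgene, was given in drinking water during pregnancy and then withdrawn, so that the transgene was on from birth. The cassette was removed by crossing males that bore the transgene to females homozygous for CMV-Cre, which is active in all tissues from soon after fertilisation. The count columns of both groups, controls included, are headed CMVxmiR with a number. Whether the controls carry Cre is not given in the labels. Controls were littermates whose genotype is labelled control, and both groups were on a C57BL/6J background. The transgene is not restricted to the liver, so the liver values cannot be separated from changes elsewhere in the animal. Each library came from 1 mouse.

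Cells build cholesterol from acetyl-CoA through mevalonate, the isoprenoid units, squalene and lanosterol, and nearly every step is an enzyme of the endoplasmic reticulum or cytosol. Transcription of these enzymes is driven by SREBP-2, the product of Srebf2, which Scap escorts to the Golgi for cleavage when membrane cholesterol is low and which Insig1 and Insig2 hold back when it is high. Excess cholesterol is esterified for storage by the Soat enzymes or exported by ABC transporters, whose genes respond to oxysterols through the liver X receptors.

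The Mir483 hairpin gives 2 mature microRNAs, shown here because they are what the transgene delivers. Their sequences are from RefSeq (GRCm38.p6, minus strand of chromosome 7, within the Igf2 gene), with the seed, bases 2 to 8, in capitals. miR-483-3p lies at chr7:142654932-142654952 and miR-483-5p at chr7:142654968-142654989.
miR-483-3p: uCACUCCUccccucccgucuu
miR-483-5p: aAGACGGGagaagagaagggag

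SREBP-2 binds sterol regulatory elements in the promoters of its target genes together with the factor NF-Y, whose box reads CCAAT. RefSeq promoter windows, from 250 bases before to 50 bases after a start site (300 bases, GRCm38.p6), were held for 27 of the 33 genes. Those of Fdps, Fdft1, Sqle, Npc1, Stard4 and Soat2 were not analysed here. CCAAT, searched on both strands, was present in at least 1 window of 16 of 17 synthesis genes (94.1%) and of 8 of 10 other members (80.0%), against 42.6% of the 10026 tested genes with a window and 41.1% of all 27025 genes with one. Counted by window rather than by gene, the shares were 80.0% of 20 synthesis windows and 37.3% of 12861 windows of tested genes. Acat2 was the synthesis gene without the box. The box did not separate the synthesis genes that rose in iTgMir483 livers (10 of 11) from those that did not (6 of 6).

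The stretches printed here show boxes that lie before the start site for 6 synthesis genes that rose and for Ggps1 and Ebp, which did not. They differ in length and leave out some boxes, so box numbers cannot be compared between them. In the whole windows Ggps1 held 3 boxes and Ebp 2. Among genes that rose, Mvk held 5, Mvd and Idi1 2 each, and Lss and Cyp51 1 each. Each printed stretch runs 5′ to 3′ in the sense of its gene and ends at the base before the start site of its window. Where a gene had several windows, the one with the most CCAAT boxes was used. For Dhcr7 that window belongs to a start site downstream of the annotated gene start at chr7:143823145. The Dhcr7 windows that begin at chr7:143822917 and chr7:143823149 held 0 boxes. Capitals mark CCAAT or its reverse complement ATTGG and, in Hmgcs1, also the 9 bases matching TCACNCCAC, a sterol regulatory element.
Hmgcs1 (chr13:119690171-119690350, plus strand): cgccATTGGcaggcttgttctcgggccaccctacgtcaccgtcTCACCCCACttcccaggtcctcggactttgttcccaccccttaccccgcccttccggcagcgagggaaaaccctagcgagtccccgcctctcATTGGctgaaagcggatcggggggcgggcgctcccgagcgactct
Mvk (chr5:114444189-114444268, plus strand): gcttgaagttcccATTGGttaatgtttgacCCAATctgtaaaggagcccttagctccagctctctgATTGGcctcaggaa
Mvd (chr8:122443423-122443502, minus strand): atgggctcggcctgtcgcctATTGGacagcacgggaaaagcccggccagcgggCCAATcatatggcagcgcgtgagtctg
Idi1 (chr13:8885526-8885605, plus strand): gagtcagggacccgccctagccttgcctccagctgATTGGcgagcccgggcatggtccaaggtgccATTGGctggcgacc
Nsdhl (chrX:72918401-72918520, plus strand): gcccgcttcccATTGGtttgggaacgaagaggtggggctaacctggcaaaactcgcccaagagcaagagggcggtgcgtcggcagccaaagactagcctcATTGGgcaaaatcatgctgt
Dhcr7 (chr7:143830114-143830213, plus strand): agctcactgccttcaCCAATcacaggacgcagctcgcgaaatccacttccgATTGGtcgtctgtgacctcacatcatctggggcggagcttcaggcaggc
Ggps1 (chr13:14063489-14063568, minus strand): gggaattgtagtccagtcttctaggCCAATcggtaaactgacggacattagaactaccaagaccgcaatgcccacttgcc
Ebp (chrX:8193513-8193592, minus strand): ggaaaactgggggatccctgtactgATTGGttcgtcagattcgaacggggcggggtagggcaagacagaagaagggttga

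TCACNCCAC, searched on both strands, was found among the synthesis genes in Hmgcs1 (5.88% of 17) and in none of the 10 other members, against 1.46% of tested genes with a window. The shorter CACNCCAC, which lies inside it, was also in Acat2 (11.8% of the synthesis genes) and in Insig1, against 7.62% of tested genes. Elements that differ from these letters were not searched for. The direct repeat of AGGTCA with a 4-base spacer, which liver X receptors bind, was in no member window and in 4 of 27025 genes (0.0148%).

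Library totals ranged from 12244123 to 30431286 counts. Mir483 itself had 0 counts in all 6 Control livers and 23.3 to 54.3 CPM (counts scaled to the library size, here by the TMM method) in the iTgMir483 livers. These poly(A) libraries count its precursor transcript, not the mature microRNAs. Of 13205 genes tested, 1470 (11.1%) were called changed, meaning an adjusted p under 0.05 in the edgeR quasi-likelihood test and a fold change over 1.5. Of all tested genes 8.41% were called higher in iTgMir483 and 2.73% lower, and for 5.09% every iTgMir483 liver lay above every Control liver. The median log2 fold change of all tested genes was 0.01. Replicate 1 of the iTgMir483 group stood apart for several of the genes below, and the call for each was also made without it and without both replicate 1 libraries.

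Most cholesterol synthesis RNAs were higher in iTgMir483 livers, while most uptake, storage and efflux RNAs did not pass the test. Of the 20 synthesis genes, all tested, 14 (70%) were called higher and 0 lower in edgeR, against backgrounds of 8.41% and 2.73%. DESeq2 called 15 higher and 0 lower, limma-voom 14 and 0, and at an unadjusted p under 0.05 there were 16 higher and 1 lower, the latter being Ebp. Their median log2 fold change was 1.05, with a range of -0.32 to 2.36, and 9 of the 20 genes (against the 5.09% background) had no overlap between the groups. Of the 12 other tested members, 2 were higher and 1 lower (25%, against 11.1%), and their median log2 fold change was -0.06. No tested member had fewer than 11 counts in any liver, so that none entered the test through 1 group alone.

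**Figure D1:**
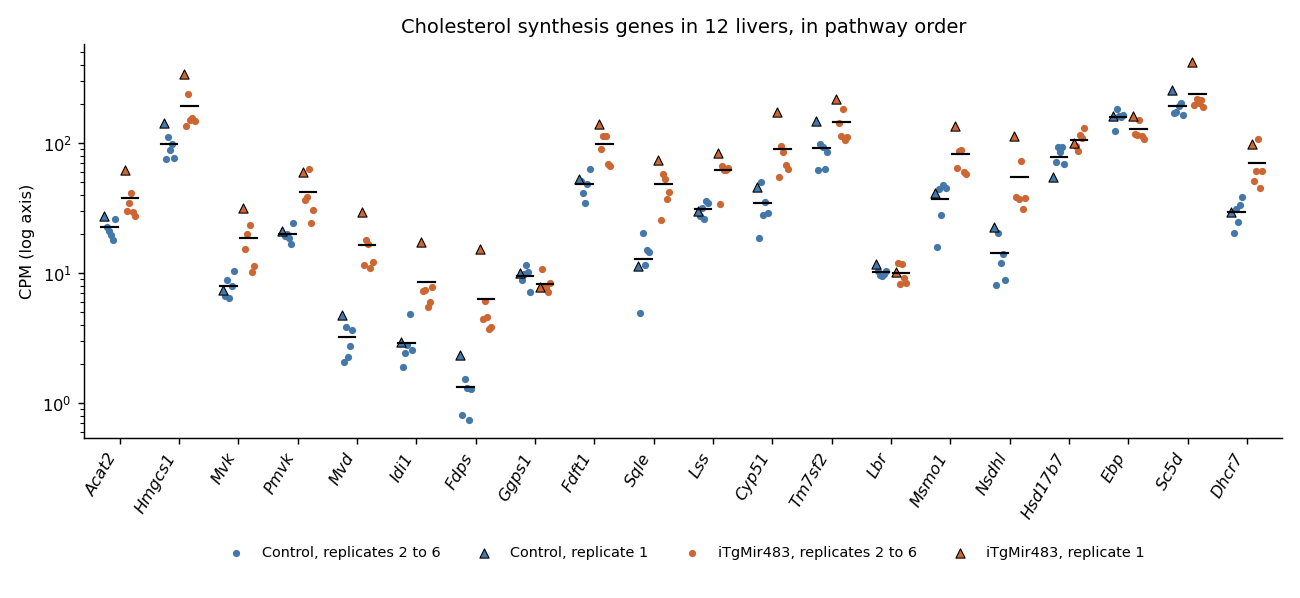
CPM (log axis) of the 20 synthesis genes in each of 12 livers, in pathway order, with Control in blue, iTgMir483 in orange, replicate 1 of each group as a triangle and the group mean as a black line. The iTgMir483 points of Mvd, Idi1, Fdps, Fdft1, Sqle, Cyp51, Msmo1, Nsdhl and Dhcr7 all lie above the Control points, whereas those of Ggps1, Lbr and Ebp do not.

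The pathway opens with acetoacetyl-CoA thiolase, Acat2, and HMG-CoA synthase, Hmgcs1. Acat2 ranged from 18.1 to 27.7 CPM in Control livers (median 22.0) and from 27.6 to 61.9 in iTgMir483 livers (median 32.4), with a log2 fold change of 0.73 ± 0.19 (SE, n = 6 per group, adjusted p = 0.0143). The groups touched, with 5 of 6 iTgMir483 livers above all controls. Hmgcs1 had 75.9 to 142 CPM in controls (median 93.4) and 136 to 337 in iTgMir483 livers (median 153), a log2 fold change of 0.97 ± 0.23 (adjusted p = 0.0104). Here too 5 of 6 iTgMir483 livers exceeded every control. Acat2 shared 45.9% of its 50-base transcript stretches with Acat3 and Tcp1. Its count is uncertain, since how the authors' counting treated such reads is not given. Hmgcs1 shared 13.6% with the antisense transcript Gm48342.

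The next enzymes phosphorylate and decarboxylate mevalonate to give isopentenyl diphosphate, and all 3 rose. Mevalonate kinase, Mvk, had 6.43 to 10.3 CPM in controls (median 7.65) and 10.2 to 31.8 in iTgMir483 livers (median 17.7), a log2 fold change of 1.24 ± 0.25 (adjusted p = 0.00428). Phosphomevalonate kinase, Pmvk, had 16.6 to 24.4 CPM (median 19.7) against 24.2 to 63.2 (median 37.5), a log2 fold change of 1.07 ± 0.21 (adjusted p = 0.00358). In each of these kinases 5 of 6 iTgMir483 livers lay above all controls. Mevalonate diphosphate decarboxylase, Mvd (ENSMUSG00000006517, chr8:122433601-122443422, minus strand), showed the largest fold change of the 32 tested members. It had 2.07 to 4.77 CPM in controls (3.22 ± 1.04, mean ± SD, n = 6) and 11.0 to 29.4 in iTgMir483 livers (16.4 ± 6.98), a log2 fold change of 2.36 ± 0.27 (adjusted p = 0.000169). Its lowest iTgMir483 liver was above its highest control by more than the whole range of the controls.

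Isopentenyl diphosphate isomerase, Idi1, and farnesyl diphosphate synthase, Fdps, assemble the isoprenoid chain. Idi1 had 1.90 to 4.82 CPM in controls (median 2.68) and 5.496 to 17.3 in iTgMir483 livers (median 7.29), a log2 fold change of 1.55 ± 0.29 (adjusted p = 0.00308). Fdps had 0.737 to 2.32 CPM (median 1.29) against 3.70 to 15.3 (median 4.52), a log2 fold change of 2.24 ± 0.39 (adjusted p = 0.00203). Neither gene overlapped between groups, although iTgMir483 replicate 1 was far above the other 5 in both. Without that replicate the log2 fold changes were 1.22 for Idi1 and 1.77 for Fdps, and both were still called. Fdps counts were low, at 11 to 38 per control liver and 50 to 210 per iTgMir483 liver. Its sequence was also the least unique of the members, with 86.4% of its 50-base stretches shared with 8 other annotated genes, including Gm43738, which overlaps 26.7% of its exon bases on the same strand. Idi1 shared 30.5% with 5 genes. The Fdps level is therefore uncertain.

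Ggps1, geranylgeranyl diphosphate synthase, leads out of the sterol pathway toward protein prenylation, and it did not pass the test. It had 7.13 to 11.5 CPM in controls and 7.21 to 10.8 in iTgMir483 livers, and the log2 fold change was -0.21 ± 0.13 (adjusted p = 0.289). It lies between Fdps and Fdft1 in the order of the plot and is the one member among the 10 genes from Acat2 to Sqle that was not called higher.

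Squalene is formed by squalene synthase, Fdft1, oxidised by squalene epoxidase, Sqle, and folded into lanosterol by lanosterol synthase, Lss. Fdft1 had 34.4 to 62.6 CPM in controls (median 49.8) and 66.2 to 139 in iTgMir483 livers (median 101), a log2 fold change of 1.02 ± 0.19 (adjusted p = 0.00276). Sqle (ENSMUSG00000022351, chr15:59315077-59331192, plus strand) had 4.95 to 20.3 CPM (median 13.0) against 25.7 to 73.6 (median 47.5), a log2 fold change of 1.91 ± 0.29 (adjusted p = 0.00105). Neither overlapped between groups. Lss had 26.0 to 35.6 CPM in controls (median 30.8) and 33.8 to 83.9 in iTgMir483 (median 63.6), a log2 fold change of 1.01 ± 0.17 (adjusted p = 0.00145). A single iTgMir483 liver of Lss fell within the control range. Fdft1 shared 30.7% of its stretches, with Ctsb and Gm6781, and Ctsb overlaps 18.3% of its exon bases on the opposite strand.

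Lanosterol then loses its extra methyl groups, the first through Cyp51 and the others through Msmo1, Nsdhl and Hsd17b7, and 3 of these 4 genes were called higher. Cyp51 had 18.6 to 49.98 CPM in controls (median 31.9) and 55.0 to 174 in iTgMir483 livers (median 76.9), a log2 fold change of 1.39 ± 0.29 (adjusted p = 0.005). Msmo1 had 16.0 to 47.4 CPM (median 43.0) against 57.4 to 136 (median 75.4), a log2 fold change of 1.15 ± 0.26 (adjusted p = 0.00848). Nsdhl had 8.05 to 22.5 CPM (median 13.0) against 30.8 to 113 (median 38.2), a log2 fold change of 1.94 ± 0.35 (adjusted p = 0.00235). These 3 genes had no overlap between the groups. Hsd17b7, the 3-ketoreductase of this stage, had 55.1 to 93.2 CPM against 87.0 to 131, and its log2 fold change of 0.45 ± 0.14 (adjusted p = 0.0345) was under the fold threshold. Mvd, Fdps, Nsdhl and Sqle, each from another stage of the pathway, had the 4 largest fold changes of the members.

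Of the 5 remaining genes, whose enzymes reduce, shift or introduce double bonds of the sterol, 1 was called higher. Dhcr7, which reduces 7-dehydrocholesterol to cholesterol, had 20.2 to 38.1 CPM in controls (median 30.2) and 44.7 to 108 in iTgMir483 livers (median 60.8), a log2 fold change of 1.27 ± 0.22 (adjusted p = 0.00199) with no overlap. Tm7sf2 and Lbr both encode a sterol C14 reductase. Tm7sf2 had 61.8 to 149 CPM against 105 to 218 and a log2 fold change of 0.66 ± 0.23 (adjusted p = 0.0594), and Lbr had 9.44 to 11.7 against 8.22 to 12.0 and a log2 fold change of -0.04 ± 0.12 (adjusted p = 0.839). Tm7sf2 missed the call by its adjusted p, with 2 of 6 iTgMir483 livers above all controls, and was called higher by DESeq2 (adjusted p = 0.0309) and with both replicate 1 libraries left out (edgeR adjusted p = 0.0150). Vps51 overlaps 12.1% of its exon bases on the same strand. Sc5d, the C5 desaturase, had 165 to 257 CPM against 189 to 421, and its log2 fold change of 0.31 ± 0.19 (adjusted p = 0.282) was 0.07 without iTgMir483 replicate 1. Ebp, the sterol isomerase, had 124 to 184 CPM against 107 to 162 and a log2 fold change of -0.32 ± 0.12 (adjusted p = 0.085), with 4 of 6 iTgMir483 livers below all controls.

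**Figure D2:**
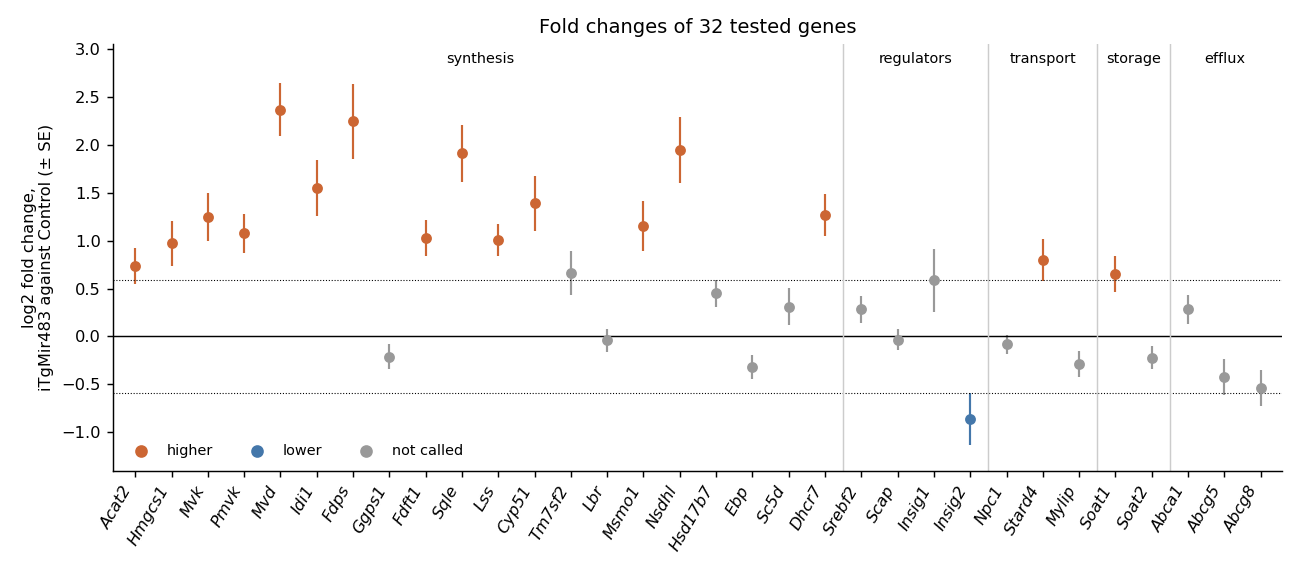
Log2 fold change of iTgMir483 against Control (± SE from edgeR) for 32 tested members in pathway order, split by role, with called genes in colour and the 1.5-fold limits dotted. The 14 called synthesis genes run from 0.73 to 2.36, and outside synthesis Stard4 and Soat1 are higher and Insig2 is lower.

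To test whether each change itself exceeded 1.5-fold, the edgeR fit was also tested against that limit. Mvd, Fdps, Sqle, Nsdhl, Idi1 and Dhcr7 passed, with adjusted p from 0.000766 for Mvd to 0.0465 for Dhcr7. The other 8 called synthesis genes had point estimates of at least 1.66-fold and did not pass this stricter test.

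The synthesis RNAs differed widely in level before any difference between groups. To compare genes within a group, counts were divided by the length of all annotated exons of a gene and scaled to a common library total (TPM). That length can exceed the longest coding transcript, so the order of the genes depends partly on the annotation. For Tm7sf2 it was 4403 bases, against 1449 overlapping 50-base stretches in that transcript. The control means of the 20 genes ran from 0.792 for Fdps to 171 ± 17.6 for Ebp (SD, n = 6). Sc5d followed at 100 ± 21.9 TPM and Hmgcs1 at 54.0 ± 15.2, the latter not apart from Tm7sf2 at 52.3 ± 19.8. Within the iTgMir483 livers Ebp at 154 ± 29.2 TPM, Sc5d at 139 ± 57.0 and Hmgcs1 at 119 ± 52.9 were the highest of the 20. TPM was not scaled by TMM, so the means of Lbr, Npc1 and Scap were slightly higher in iTgMir483 on this scale and slightly lower in the fit, and differences between groups are read from the fit alone. The SD of the log2 level over the 20 genes was 1.90 in controls and 1.60 in iTgMir483. Over the 16 genes with under 30% shared stretches, which leave out Fdps, the SD was 1.64 and 1.48. Over the 20 genes Spearman's rho between the control level and the log2 fold change was -0.556, and over the 16 genes with under 30% shared stretches it was -0.391. These are descriptions over genes of the same libraries, and the control level enters both quantities. With the iTgMir483 level in place of the control level the values were -0.353 and -0.206. Ggps1 and Lbr, at 5.08 and 5.38 TPM in controls, were low in level and were not called.

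**Figure D3:**
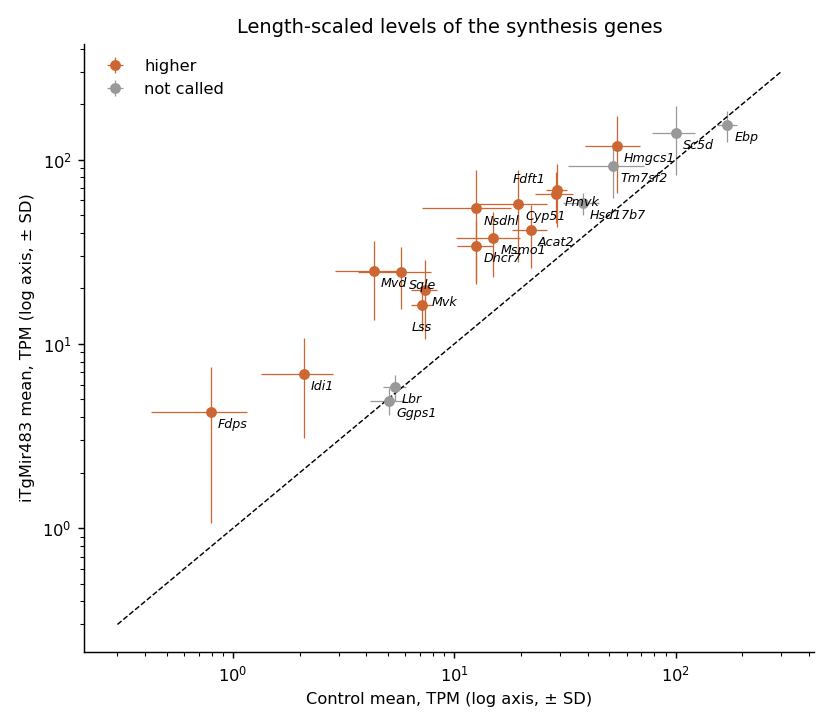
Mean level of each synthesis gene in Control (horizontal) and iTgMir483 (vertical) livers, both as TPM on log axes with SD bars from 6 livers, called genes in orange and the dashed line marking equal TPM. TPM was not scaled by TMM, so the line is a guide to the eye, and the picture shows the order of the genes within each group, from Fdps at 0.792 to Ebp at 171 TPM in controls.

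The livers of a group did not share 1 level of the pathway. Averaged over the 20 synthesis genes, the log2 deviation from the control mean was 1.68 in iTgMir483 replicate 1 and 0.64 to 1.14 in the other 5. Replicate 1 held the highest value of its group in 15 of the 20 genes, and in 12 of the 14 called higher, but in 4 of the 12 other tested members. Among controls the average ran from -0.39 in replicate 2, the lowest control in 10 genes, to 0.25 in replicate 1. The lowest iTgMir483 average, 0.64 in replicate 5, was still above the highest control average. With both replicate 1 libraries left out, 15 synthesis genes were called higher and the median log2 fold change was 0.94. Without iTgMir483 replicate 1 alone, 13 were called, since Acat2 came under the fold threshold at 0.53.

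**Figure D4:**
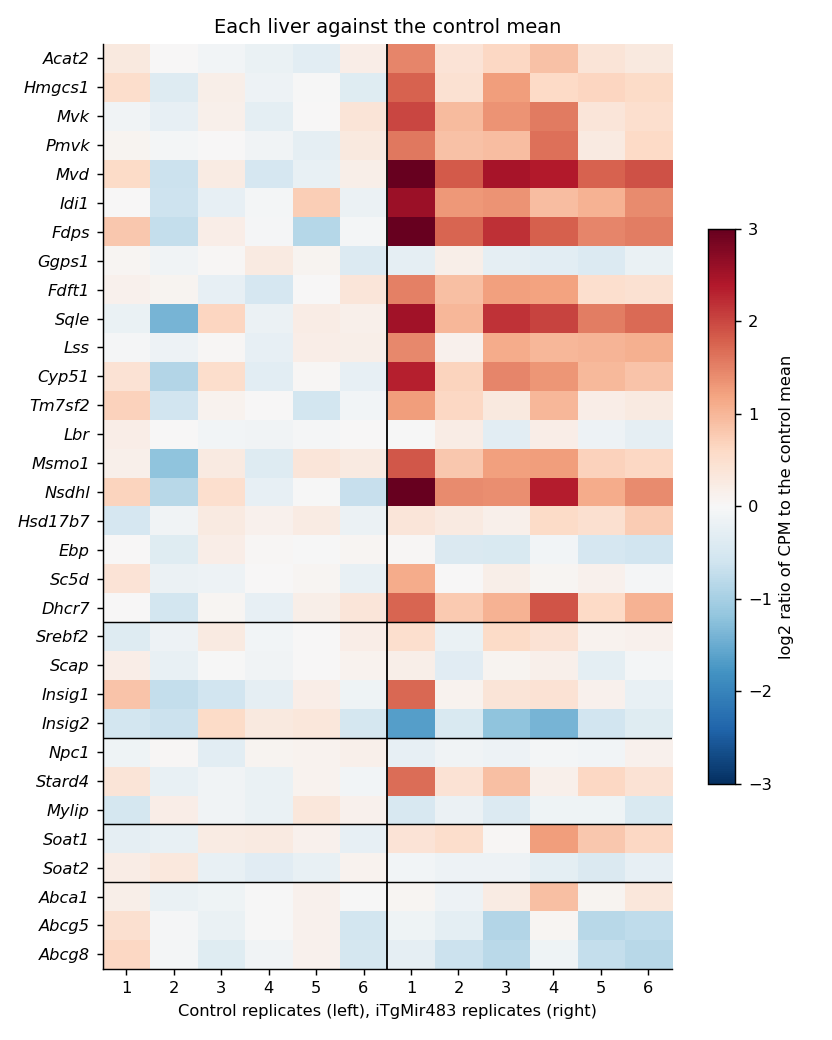
Each liver as a log2 ratio of CPM to the control mean (colour, limits at 3 either way) for 32 tested members in rows and 12 livers in columns, Control replicates 1 to 6 left of the line and iTgMir483 replicates 1 to 6 right of it. Most synthesis rows, but not Ggps1, Lbr and Ebp, are raised in all 6 iTgMir483 columns and most in replicate 1, whose average over the 20 genes is 1.68, while Insig2, Abcg5 and Abcg8 are lower in several of them.

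Among the regulators, Insig2 was lower and the others did not pass the test. Srebf2 itself had 46.8 to 73.5 CPM in controls (median 60.003) and 52.9 to 91.5 in iTgMir483 livers (median 74.4), a log2 fold change of 0.28 ± 0.14 (adjusted p = 0.179). Scap had 115 to 153 CPM against 106 to 150, a log2 fold change of -0.03 ± 0.11 (adjusted p = 0.866). The transcript level does not report the cleavage of SREBP-2, on which its activity depends. Insig1, itself a target of SREBP-2, had 49.2 to 145 CPM in controls (median 70.3) and 69.2 to 266 in iTgMir483 livers (median 96.4), a log2 fold change of 0.58 ± 0.33 (adjusted p = 0.229). The value was 0.19 without iTgMir483 replicate 1, the one liver above all controls.

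Insig2 (ENSMUSG00000003721, chr1:121304353-121332589, minus strand) was the most abundant member per length, in both groups, with 335 ± 119 TPM in controls. It had 300 to 693 CPM in controls (median 449) and 148 to 365 in iTgMir483 (median 259), so that the groups overlapped and 3 of 6 iTgMir483 livers lay below all controls. Its log2 fold change was -0.86 ± 0.27 (adjusted p = 0.0403). Insig2 and Insig1 thus stood on opposite sides of 0, though the difference between their fold changes was not tested. The Insig2 call was lost when any of 6 libraries was left out singly (Control replicates 3, 4 and 5, iTgMir483 replicates 1, 3 and 4), with adjusted p from 0.0635 to 0.0903, and its log2 fold change stayed between -0.98 and -0.71 over the 12 omissions.

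**Figure D5:**
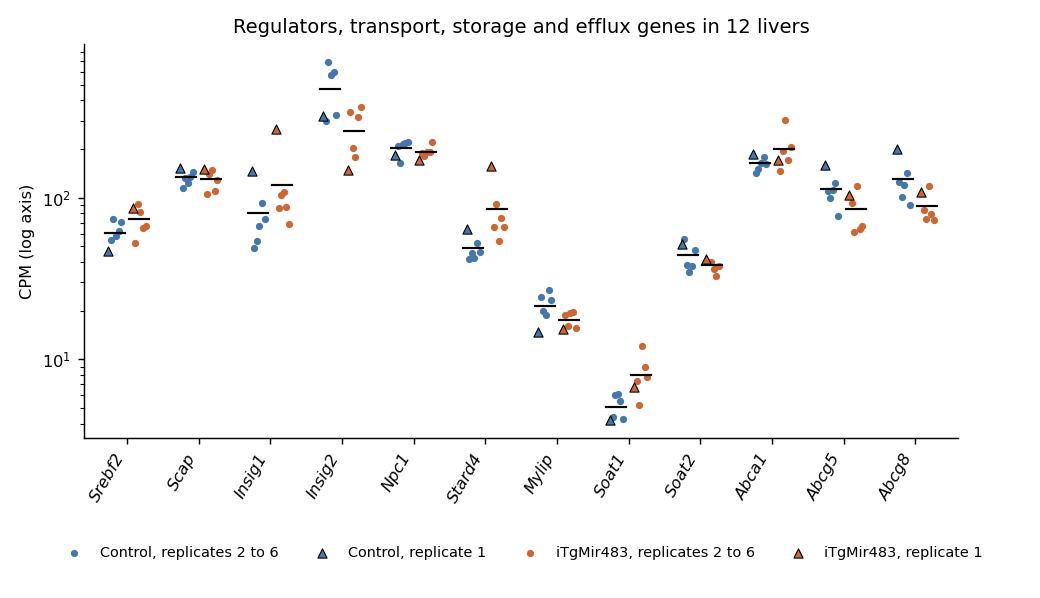
CPM (log axis) of 12 regulator, transport, storage and efflux genes in each of 12 livers, Control in blue, iTgMir483 in orange, replicate 1 of each group as a triangle and group means as black lines. No gene separates the groups, iTgMir483 replicate 1 is alone above the controls for Insig1 at 266 CPM, and Insig2 spans 148 to 365 CPM in iTgMir483 against 300 to 693 CPM in controls.

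Uptake and transport genes gave 1 higher call of 3 tested, where 8.41% of all tested genes were higher. Stard4, a cytosolic sterol carrier whose gene responds to SREBP-2, had 42.0 to 64.4 CPM in controls (median 46.0) and 54.1 to 156 in iTgMir483 livers (median 70.8), a log2 fold change of 0.80 ± 0.22 (adjusted p = 0.0213), with 5 of 6 iTgMir483 livers above all controls. The call was lost without Control replicate 4 (adjusted p = 0.0528) and without iTgMir483 replicate 1, when the log2 fold change was 0.53. Npc1, which releases cholesterol from lysosomes, had 163 to 223 CPM against 171 to 220, a log2 fold change of -0.08 ± 0.10 (adjusted p = 0.602). Mylip, a ubiquitin ligase that degrades lipoprotein receptors and is induced by liver X receptors, had 14.7 to 26.8 CPM against 15.4 to 19.6, a log2 fold change of -0.28 ± 0.14 (adjusted p = 0.161). Npc1l1, the sterol importer of the intestine, had at most 2 counts in any liver and was not tested.

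The storage enzymes Soat1 and Soat2 both esterify cholesterol, Soat2 in hepatocytes and Soat1 more widely, macrophages included. Soat1 had 4.20 to 6.12 CPM in controls (median 4.96) and 5.22 to 12.1 in iTgMir483 livers (median 7.58), a log2 fold change of 0.65 ± 0.19 (adjusted p = 0.0273), with 5 of 6 iTgMir483 livers above all controls. Soat2 had 34.8 to 55.4 CPM against 32.96 to 41.9, a log2 fold change of -0.22 ± 0.12 (adjusted p = 0.217). Per length Soat2 was far above Soat1, at 50.3 ± 11.0 against 1.30 ± 0.22 TPM in controls. The summed CPM of 6 macrophage markers was 253 to 386 in controls and 394 to 1082 in iTgMir483 livers without overlap. Of the 6 markers, 5 were called higher (83.3%, against 8.41% of all tested genes). The part of this marker sum in the Soat1 difference was not tested. In bulk tissue more cells of a type cannot be told apart from more RNA per cell. Soat1 lost its call when Control replicate 2 or 6 or iTgMir483 replicate 4 or 5 was left out, with adjusted p up to 0.0591.

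Of the 3 efflux transporters edgeR called 0, as did DESeq2 and limma-voom, while 2 were lower at an unadjusted p under 0.05. Abcg5 and Abcg8 form the heterodimer that secretes sterols into bile and lie head to head on chromosome 17, where 3.0% of the exon bases of Abcg5 overlap Abcg8 on the other strand. Abcg5 had 77.1 to 159 CPM in controls (median 111) and 61.8 to 119 in iTgMir483 livers (median 80.2), a log2 fold change of -0.42 ± 0.19 (adjusted p = 0.139). Abcg8 had 90.3 to 200 CPM (median 123) against 72.4 to 119 (median 81.6), a log2 fold change of -0.54 ± 0.18 (adjusted p = 0.0555). Below all controls lay 3 of 6 iTgMir483 livers for Abcg5 and 4 of 6 for Abcg8. Abcg8 was called lower in 4 of the 12 fits that left out 1 library (Control replicates 3 and 6, iTgMir483 replicates 1 and 4), with adjusted p from 0.0324 to 0.0480. Abca1, which loads cholesterol onto apolipoprotein A-I, had 142 to 186 CPM in controls (median 163) and 147 to 305 in iTgMir483 livers (median 184), a log2 fold change of 0.28 ± 0.15 (adjusted p = 0.211).

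Genes that branch off or feed the pathway were read from 6 further lists. The isoprenoid branch (prenyl transferases, ubiquinone and dolichol enzymes) had 0 of 14 genes called in edgeR, DESeq2 or limma-voom, 3 lower and 0 higher at an unadjusted p under 0.05, and a median log2 fold change of -0.11. An adjusted p under 0.05 without the fold change was reached by 2 of its genes, named after their values were seen. Icmt, the carboxyl methyltransferase of prenylated proteins, had a log2 fold change of -0.52 ± 0.07 (adjusted p = 0.000346) with every iTgMir483 liver below every control, and Rabggta, a subunit of Rab geranylgeranyl transferase, one of -0.43 ± 0.10 (adjusted p = 0.0104). The most abundant gene of the branch in controls, Zmpste24, which processes prenylated proteins, had 55.4 ± 3.51 CPM there and 48.5 ± 5.97 in iTgMir483 livers. The supply of cytosolic acetyl-CoA (Acly, Acss2, Slc25a1) had 0 of 3 called in edgeR and limma-voom and 1 higher in DESeq2. All 3 were higher at an unadjusted p under 0.05, with a median log2 fold change of 0.58. Acly, ATP citrate lyase, was the most abundant of the 3 in iTgMir483 livers. It had 113 ± 25.8 CPM in controls and 190 ± 92.6 in iTgMir483 livers, a log2 fold change of 0.75 ± 0.27 (adjusted p = 0.0639). Slc25a1, the most abundant in controls, had 126 ± 11.2 CPM there and 169 ± 23.6 in iTgMir483 livers without overlap. Its log2 fold change of 0.42 ± 0.10 (adjusted p = 0.0130) was under the fold threshold.

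Of 12 genes that process SREBPs or degrade pathway proteins, 1 was called (8.33%, no more than the 11.1% of all tested genes). Rnf145, a ubiquitin ligase of the endoplasmic reticulum whose gene responds to liver X receptors, went from 28.1 ± 3.10 CPM in controls to 57.2 ± 6.97 in iTgMir483 livers without overlap, a log2 fold change of 1.03 ± 0.10 (adjusted p = 5.2e-05). Of 12 genes of intracellular sterol transport and ester hydrolysis, 3 were higher and 1 lower (33.3% called, against 11.1%). Gramd1b, a carrier at contacts of the plasma membrane with the endoplasmic reticulum, rose by 0.77 ± 0.14, the lysosomal lipase Lipa by 0.67 ± 0.10 and the sterol carrier Scp2, the most abundant of the list, by 0.60 ± 0.12 on the log2 scale, all without overlap. The ester hydrolase Nceh1 fell by 0.65 ± 0.18 on the same scale.

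Of 10 genes of the liver X receptor and lipoprotein steps, 1 was called higher (10%, close to the 8.41% of all tested genes). Abcg1, a sterol exporter of macrophages, had 7.36 ± 1.01 CPM in controls and 11.5 ± 3.14 in iTgMir483 livers without overlap, a log2 fold change of 0.65 ± 0.16 (adjusted p = 0.013). The macrophage marker sum given above moved with it, and its part was not tested. Apoe, the most abundant, had a log2 fold change of -0.15 ± 0.13 (adjusted p = 0.46). Of 7 tested genes that turn cholesterol into bile acids and oxysterols, 3 were lower and 0 higher in edgeR (42.9% called, against 11.1%), and 4 lower and 0 higher in DESeq2 and in limma-voom. Cyp7b1, the oxysterol 7α-hydroxylase of the alternative pathway, fell by 2.29 ± 0.45 on the log2 scale, from 15.9 ± 8.68 to 3.27 ± 2.33 CPM (adjusted p = 0.0039). Cyp8b1, the 12α-hydroxylase and the most abundant of the list in controls, fell by 1.29 ± 0.35, from 569 ± 247 to 232 ± 95.1 CPM (adjusted p = 0.019). Hsd3b7 fell by 0.76 ± 0.12 (adjusted p = 0.00117). The other tested genes of this list were not called in edgeR. Their log2 fold changes were 0.40 ± 0.29 for Cyp7a1 (adjusted p = 0.352) and -0.0009 ± 0.09 for Amacr (adjusted p = 0.996). For Cyp27a1 and Cyp39a1 they were -0.39 ± 0.14 (adjusted p = 0.068) and -0.77 ± 0.26 (adjusted p = 0.0547).

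The labelled tissue was checked by its markers. The 6 hepatocyte markers, led by Alb, summed to 116917 to 161792 CPM in controls and 53774 to 122273 in iTgMir483 livers. Of these 1 of 6 was called lower (16.7%, against 2.73% of all tested genes). It was Cps1, the first enzyme of the urea cycle, named after its values were seen. For bile duct cells 3 of 5 tested markers (Spp1, Epcam and Krt7) were higher (60%, against 8.41% of all tested genes). Krt19 (log2 fold change 0.10, adjusted p = 0.825) and Sox9 (0.26, adjusted p = 0.425) were not called. The sums of 21.0 to 46.1 CPM against 60.8 to 89.4 came mostly from Spp1, at 25.6 ± 7.62 CPM in controls and 63.6 ± 11.7 in iTgMir483 livers. Endothelial and stellate markers had 0 of 6 called each in edgeR, with 2 each higher at an unadjusted p under 0.05, and DESeq2 and limma-voom each called 0 endothelial and 1 stellate marker higher. The 5 adipocyte markers summed to at most 2.34 CPM in any liver, with Lep at 0 in all, and the enterocyte genes Alpi and Sis were at 0 in all livers. Apoa4, which the liver also expresses, was the 1 higher gene of 2 tested on the enterocyte list. The part of these differences in the synthesis genes was not tested.

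Matches to the microRNA seeds were counted in the longest annotated 3′ UTR of each gene (GENCODE M21, GRCm38). A match of 7 bases to the seed of miR-483-3p, AGGAGTG, was present in 4 of 33 members (12.1%), against 12.6% of 12098 tested genes with a 3′ UTR. The matches of Idi1 and Soat1 lie in genes that were higher, and those of Ggps1 and Abca1 in genes that were not called. The seed match of miR-483-5p, CCCGTCT, was in Lbr alone (3.03%, against 3.26%). Insig2, the one lower member, had no match to either seed. The sites of all 5 matching genes are printed with their flanks, the match in capitals, since they are the only places where a member's UTR pairs with a seed over 7 bases.
Idi1 (chr13:8891946-8891952, plus strand): tgggattaaAGGAGTGtacca
Ggps1 (chr13:14053639-14053645, minus strand): ttgaaaatgAGGAGTGgcttc
Soat1 (chr1:156430506-156430512, minus strand): ttctgtgctAGGAGTGgaacc
Abca1 (chr4:53032625-53032631, minus strand): tgcttggatAGGAGTGagggg
Lbr (chr1:181815607-181815613, minus strand): gtggctgtgCCCGTCTgatca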

How the data were processed

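RNA was measured in 12 livers, 6 per group. The authors made TruSeq stranded poly(A) libraries, sequenced them as paired ends, aligned the reads with STAR to GRCm38 (Ensembl annotation) and deposited raw counts per gene. How reads matching several genes were counted is not given in the sources used here. Columns were matched to livers by name. Of 55401 genes, 260 had no symbol. Counts were filtered with filterByExpr, scaled by TMM and tested with edgeR 4.0.16 (quasi-likelihood F-test, no covariates, Benjamini-Hochberg adjustment over all 13205 tested genes, in R 4.3.3), and a gene was called at an adjusted p under 0.05 with a fold change over 1.5. The SE was obtained as the absolute log2 fold change over the root of its F statistic.

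Library totals of 12244123 to 30431286 counts set the precision, and the lowest tested member had 11 counts in a liver. Groups and replicate numbers came from the sample titles. TPM was computed from the union of GENCODE M21 exons, and 99.97% of counts lay in genes with exons there. It is scaled within each library, without TMM, and no difference between groups was tested on it. Shared sequence is the percent of 50-base transcript stretches also found in another gene.

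The members and lists were chosen with earlier results of these data known. All members are described. In each further list the text names the called genes, at most 4 by size of fold change, and the most abundant gene. For the list of bile acids and oxysterols all tested genes are named. Alternatives were RLE scaling, other count filters, DESeq2 1.42.0, limma-voom (limma 3.58.1), the fold threshold, a replicate block, and leaving out libraries. Some genes of the pathway and of these lists are not reported here. P-values set the difference between the groups against the spread between mice within them, and litter was not modelled.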

Additional observations from a re-analysis of the deposited data

Results flagged for a closer look

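The distance of the highest or lowest liver from its nearest neighbour was compared with the range of its group (Dixon's ratio). This was done in 2 groups for the 32 tested members and for the average deviation of the synthesis genes. Of these 66 combinations with a group, 8 exceeded the 95% critical value for 6 livers, where chance gives about 3.3 and the genes are not independent.

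Of the 8, 6 were high values of iTgMir483 replicate 1. Its Sc5d level was 421 CPM against 189 to 219 in the other 5 livers (ratio 0.871), Idi1 was 17.3 against 5.496 to 7.82 (0.803), and Insig1 was 266 against 69.2 to 109 (0.798). Fdps was 15.3 CPM against 3.70 to 6.06 (0.796), Cyp51 was 174 against 55.0 to 95.5 (0.659), and Stard4 was 156 against 54.1 to 91.1 (0.639).

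The other 2 were Ggps1 in iTgMir483 replicate 2, at 10.8 CPM against 7.21 to 8.36 (0.677), and Idi1 in Control replicate 5, at 4.82 CPM against 1.90 to 2.95 (0.641).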

How the results depend on the processing

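Depth limits genes near 1 CPM, such as Fdps, and the calls of Insig2, Soat1, Stard4, Acat2, Tm7sf2 and Abcg8 depended on single libraries. RLE scaling, 2 other count filters, DESeq2 and limma-voom called 17 or 18 members, and each shared all 17 with the fit reported. With an adjusted p alone, 2457 genes changed and 968 were lower. Tested against a fold change of 1.5, 226 genes changed, 167 higher and 59 lower, with 6 members, all 6 in synthesis and 0 of the others (edgeR). By the usual test the unadjusted p was under 0.05 for 2 higher and 3 lower of those others, and DESeq2 and limma-voom each called 2 higher and 1 lower. Leaving out 1 library at a time gave 15 to 18 members called, 13 to 15 synthesis genes higher and 1 to 3 other members changed, the lowest without Control replicate 4. It moved the log2 fold change of Scap between -0.0771 and 0.0208 and that of Lbr between -0.103 and 0.00892, crossing 0, and neither was called. The share of members with a seed match of miR-483-3p went from 12.1% to 3.03% when an A after the match was required. Over the tested genes with a 3′ UTR the share went from 12.6% to 3.44%. The cause of these shifts was not tested beyond the stricter rule itself.

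With replicate number as a replicate block, 1530 genes changed and 18 members were called, with Tm7sf2 added (adjusted p = 0.00783). The deviations of same-numbered livers correlated at 0.0339 to 0.440, under 0.1 in 4 of the 6 numbers, so the numbers were not treated as pairs.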

Other observations

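Srebf1, which encodes the SREBP form that drives fatty acid synthesis, had 24.6 to 217 CPM in Control and 59.1 to 258 in iTgMir483 livers, and was highest in replicate 1 of both groups. Srebf2 did not follow it in Control replicate 1, where it was at its lowest control level of 46.8 CPM.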
